A study of Mus musculus with 16 samples.

Results

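The 38 genes described here are the chaperones of the endoplasmic reticulum (ER), the genes that sense and answer ER stress, and the cytosolic and mitochondrial heat shock proteins. They were taken by gene symbol from the count table, with no threshold on a measured value, and all 38 were found among its 24421 genes. They comprised 15 ER chaperones and folding enzymes, 4 genes of ER-associated degradation, 6 stress sensors and transcription factors, 3 target genes of the factors ATF4 and CHOP, 8 cytosolic heat shock proteins and 2 mitochondrial chaperonins.

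CD11b+ myeloid cells had been sorted from MC38-Ova tumours, a mouse colon carcinoma line carrying ovalbumin, grown under the skin of female Kaede mice on a C57BL/6 background that were 8 to 14 weeks old and had received control treatment. Kaede is a protein that turns from green to red under violet light. Tumours were illuminated on day 13, so Kaede-red cells were already in the tumour at that time and Kaede-green cells had entered since. Both kinds of cell were taken 24h or 72h after the light and measured by bulk RNA-seq, with 4 libraries in each of the 4 groups, 16 in all. All libraries carried the label of the same month. The study describes these libraries as tumours of independent mice. Whether a Kaede-green and a Kaede-red library with the same number came from the same tumour is not stated in the sources used here.

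Proteins that enter the ER are folded by chaperones such as BiP and by enzymes that form disulphide bonds, and those that fail to fold are drawn back into the cytosol and degraded. When unfolded proteins build up, the sensors IRE1, PERK and ATF6 raise the unfolded protein response through the transcription factors XBP1, ATF4 and the cleaved form of ATF6. The heat shock response is a separate programme of the cytosol, led by HSF1, which raises HSP70, HSP90 and their partners. Macrophages engage both programmes when they take up and digest material or are stressed during handling, and RNA-seq reads only the RNA level of these genes, not the splicing of Xbp1 or the cleavage of ATF6.

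Genes of these responses are known to carry DNA elements bound by their transcription factors, and the matches are shown because they differ between members of the same role as well as between roles. The RefSeq promoter table (build GRCm38.p6, each window running from 250 bases before the start of transcription to 50 bases from the start on) held 36 promoters of 31 of the 38 members. The ER stress element, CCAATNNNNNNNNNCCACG, was found on either strand in the promoters of 8 members, 7 of them ER chaperones or folding enzymes. Of all 32851 promoters in the table, 39 (0.119%) held it. The matches, read in the direction of the motif and with its defined letters in capitals, were:
Hspa5: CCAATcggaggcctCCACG
Hsp90b1, first: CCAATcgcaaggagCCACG
Hsp90b1, second: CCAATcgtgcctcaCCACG
Calr: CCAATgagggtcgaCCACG
Canx: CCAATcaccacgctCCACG
Pdia6: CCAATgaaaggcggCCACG
Dnajc3: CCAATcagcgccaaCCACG
Creld2: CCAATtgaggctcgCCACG
Syvn1: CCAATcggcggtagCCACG

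The promoter of Hspa5, which encodes BiP, was the only member promoter that also held TGACGTG, an element bound by ATF6 and XBP1 that was found in 2.01% of all promoters. Its 250 bases before the start, chr2:34771840-34772089 on the plus strand, are printed with the TGACGTG at positions -157 to -151 and the ER stress element at positions -65 to -47 in capitals:
Hspa5: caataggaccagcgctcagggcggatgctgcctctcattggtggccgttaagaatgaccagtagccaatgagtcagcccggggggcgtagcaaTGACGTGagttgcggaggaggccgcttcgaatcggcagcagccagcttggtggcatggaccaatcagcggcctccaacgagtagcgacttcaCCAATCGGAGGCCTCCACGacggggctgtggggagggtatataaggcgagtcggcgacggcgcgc

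Heat shock elements, searched as GAANNTTC or TTCNNGAA, lay in the promoters of 7 members, Hspa1a, Hspa1b, Dnaja1, Hsph1, Hspd1, Hspe1 and Asns, against 15.1% of all promoters. The 250 bases before the starts of Hspa1a (chr17:34972157-34972406, minus strand) and Hspe1 (chr1:55087898-55088147, plus strand) are printed with these elements in capitals, because both genes changed in Kaede-red cells:
Hspa1a: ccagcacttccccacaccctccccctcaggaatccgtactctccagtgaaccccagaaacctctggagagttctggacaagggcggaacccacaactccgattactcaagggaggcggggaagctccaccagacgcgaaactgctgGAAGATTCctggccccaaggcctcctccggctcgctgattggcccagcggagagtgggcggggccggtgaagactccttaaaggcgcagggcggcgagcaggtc
Hspe1: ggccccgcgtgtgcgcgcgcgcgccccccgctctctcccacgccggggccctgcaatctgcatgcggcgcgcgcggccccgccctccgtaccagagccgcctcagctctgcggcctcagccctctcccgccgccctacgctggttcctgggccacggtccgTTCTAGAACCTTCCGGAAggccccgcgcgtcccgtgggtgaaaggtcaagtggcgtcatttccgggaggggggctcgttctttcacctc
In Hspe1 the capitals are a run of 3 overlapping elements. The same run stands in a promoter of Hspd1, since the 2 genes lie head to head on chromosome 1 and their windows share 285 bases. The windows of Hspa1a and Hspa1b had the same base at 296 of 300 positions. The ATF4 element TGATGNAA was found in Trib3, Chac1, Asns and Herpud1, and in 3.97% of all promoters. In Asns it overlapped the heat shock element.

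The promoter of Sel1l held none of these elements. It held only CCACG, the last part of the ER stress element, which 32.8% of all promoters hold. Its 250 bases before the start, chr12:91849158-91849407 on the minus strand, are printed with the reverse complement of CCACG in capitals, for contrast with Hspa5:
Sel1l: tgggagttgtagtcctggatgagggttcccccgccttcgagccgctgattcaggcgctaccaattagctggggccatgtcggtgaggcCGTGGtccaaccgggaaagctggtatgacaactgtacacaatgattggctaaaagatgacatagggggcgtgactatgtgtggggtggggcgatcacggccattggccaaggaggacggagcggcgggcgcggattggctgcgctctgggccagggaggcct
Such matches describe letters only and do not show that a factor was bound.

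Total counts ran from 3216858 to 15423085 per library. The 45S ribosomal RNA precursor Rn45s took 79.05% to 93.4% of them in Kaede-green and 55.81% to 84.87% in Kaede-red libraries. The Kaede-red 24h group was split, with 66.24% and 68.23% in replicates 1 and 2 and 83.08% and 84.87% in replicates 3 and 4. Hspa1a, Hspa1b, Hspe1 and Hspd1 were divided between the same libraries of this group, and the part of this split in the results was not tested. The 38 members together received between 2682 and 67085 counts per library, with group medians of 3845 in Kaede-green 24h, 15376.5 in Kaede-red 24h, 5438.5 in Kaede-green 72h and 49593.5 in Kaede-red 72h libraries. Values below are CPM, the counts of a gene relative to a fixed library total, after TMM scaling, which sets libraries to a common level for most genes. Of the 38 members 37 passed the filter on low counts and were tested with edgeR among 9642 genes. The exception was Chac1, a glutathione-degrading target of ATF4, with 0 to 7 counts per library. Scaling by the total outside Rn45s instead moved the median log2 difference of all tested genes between Kaede-red and Kaede-green cells from 0.06 to 0.81, and the median of the members from -0.08 to 0.69. The members thus stood 0.14 below the median of all genes with TMM and 0.12 below it with the other scaling, and the changes given below are relative to most genes, not amounts per cell. Fewer cells of a type and less RNA per cell cannot be told apart in these bulk samples.

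The sorted cells carried macrophage and monocyte markers, 8 of 8 of which were tested and whose summed level was between 617 and 2168 CPM per library. Markers of T and NK cells, B and plasma cells and tumour epithelium each summed to less than 6 CPM in every library, and Krt18 and Krt19 were at 0 in 3 of the 4 groups. The fibroblast list summed to 41.8 to 55.2 CPM in Kaede-green 24h, 19.8 to 38.6 in Kaede-red 24h, 46.1 to 51.5 in Kaede-green 72h and 12.4 to 19.5 in Kaede-red 72h libraries. The part of these other cells in the results below was not tested.

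Levels differed widely between members when set per length of exon. Hspa8, the constitutive HSP70 of the cytosol, stood highest, at 82.6 CPM per kb of exon on the mean of the 4 groups, above 98.8% of tested genes. Hsp90ab1, the constitutive HSP90, followed at 51.6, and Calr, the calcium-binding lectin chaperone calreticulin, at 49.1. Hspa5 (26.7), Hsp90b1 (25.1), P4hb (24.9), Canx (22.4) and Pdia3 (21.1) formed a close run of abundant ER chaperones and disulphide isomerases. The order of these 5 genes changed from group to group. Hspa5 was highest of them in Kaede-red 72h libraries, at 28.1 ± 1.67, and P4hb in Kaede-red 24h libraries, at 26.4 ± 1.22 (SD, n = 4). The transcription factors were lower, with Atf4 at 9.90, Xbp1 at 8.91, Ddit3, which encodes CHOP, at 4.64 and Atf6 at 1.97. Hsf1 was the lowest tested member at 0.237, above only 11.2% of tested genes. The sensor Ern1, which encodes IRE1, stood at 0.811 and the degradation gene Sel1l at 1.26.

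**Figure D1:**
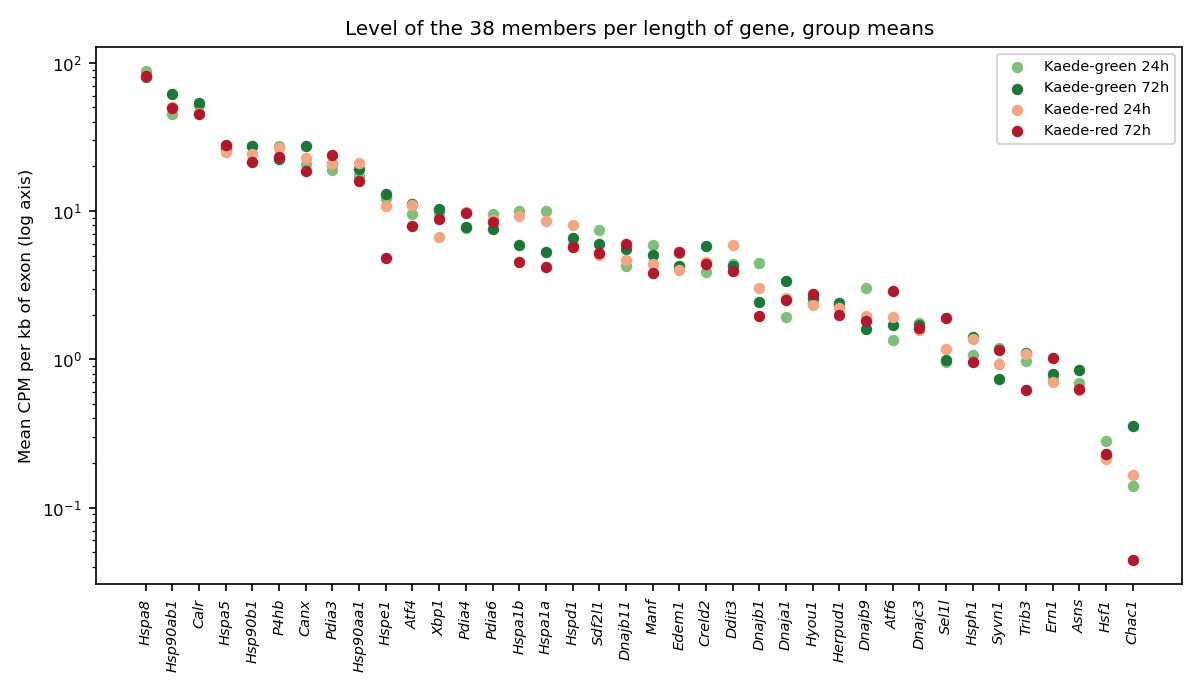
Mean level per kb of exon (log axis) of the 38 members, ordered from highest to lowest, with a point for each of the 4 groups (each colour at each time, n = 4 libraries). Hspa8, Hsp90ab1 and Calr lead the order in all groups and Chac1, which was not tested, stands last.

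Over both times together, 3 of the 37 tested members (8.11%) differed between Kaede-red and Kaede-green cells at an adjusted p under 0.05, against 20.3% of all tested genes. Sel1l and Atf6 were higher and Hspe1, the mitochondrial co-chaperonin HSP10, was lower in Kaede-red cells. Scaled by the total outside Rn45s, 30 members were called, all of them higher, where 58.7% of all tested genes were called. Under that scaling Hspe1 was no longer called, with a log2 fold change of -0.04 (edgeR adjusted p = 0.852). None of the 15 ER chaperones and folding enzymes and none of the 8 cytosolic heat shock proteins passed the test, although 32.5% of all tested genes had an unadjusted p under 0.05 and 7 members did (Sel1l, Atf6, Hspe1, Xbp1, Manf, Pdia4 and Dnajb1, the last 4 named after their values were seen). With TMM scaling, the precision was sufficient to bound most differences. The 95% interval of the log2 fold change lay within 1 in either direction, a 2-fold difference, for 34 of 37 members (91.9%) and for 51.7% of all tested genes. The members are expressed above the general level, with a median of 18.2 CPM against 4.26 CPM of all tested genes, and their median standard error was 0.17 against 0.27.

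**Figure D2:**
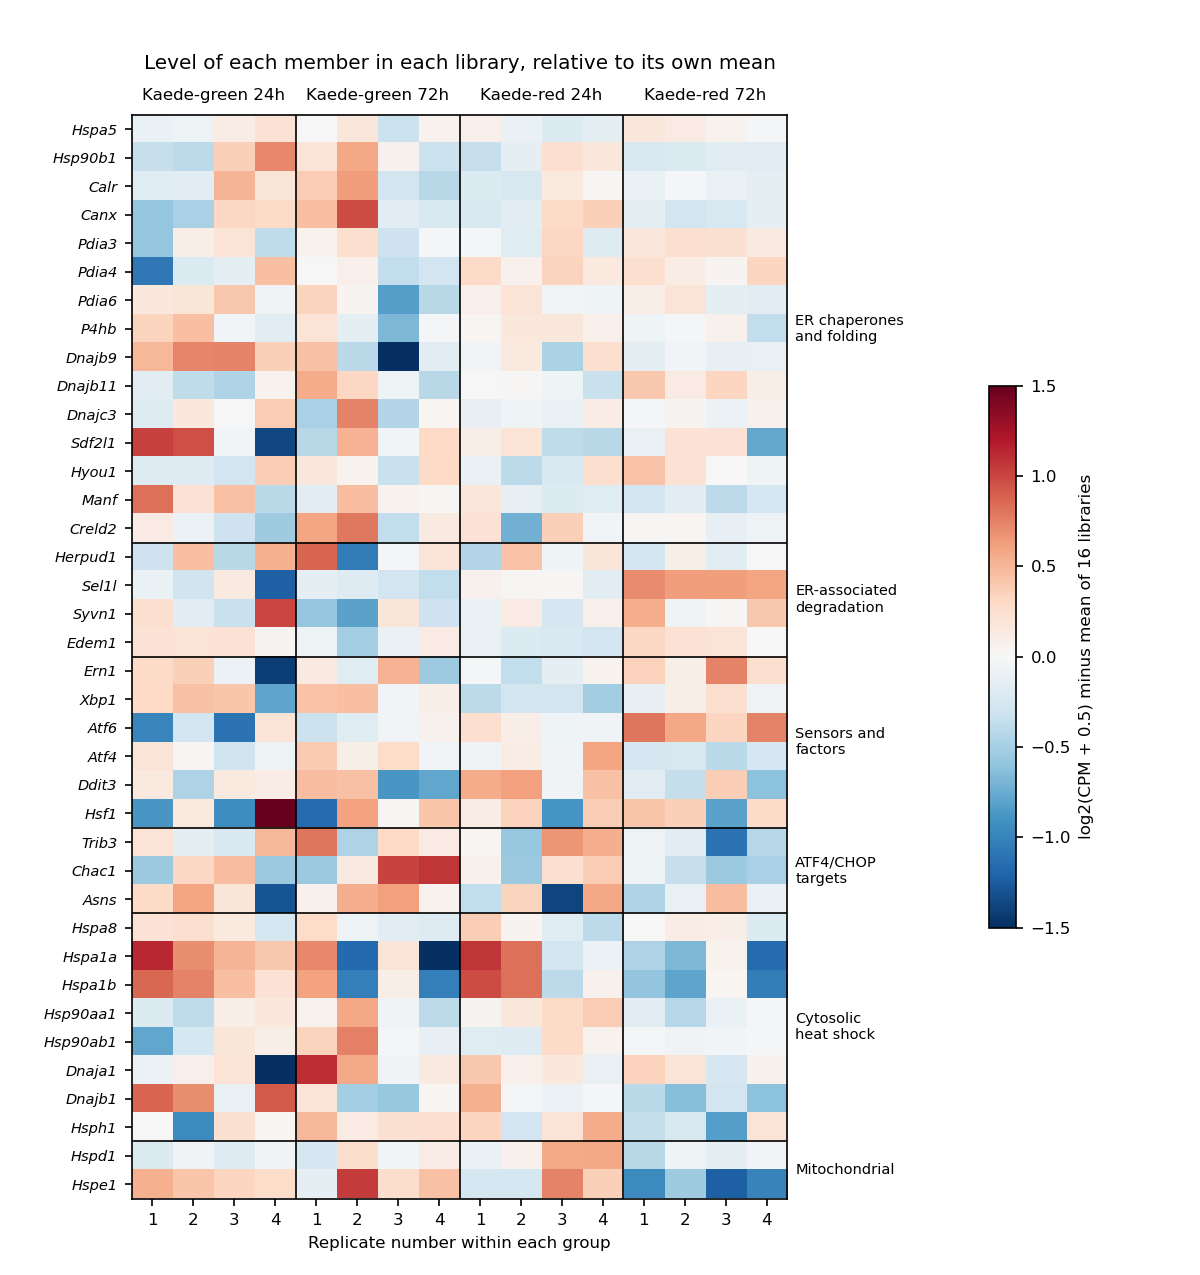
Level of each of the 38 members (rows, by role) in each of the 16 libraries (columns, by group and replicate number), as log2(CPM + 0.5) minus the member's mean over all libraries, with colours ending at -1.5 and 1.5. Sel1l and Atf6 are high and Hspe1 is low in the 4 Kaede-red 72h libraries, and Hspa1a and Hspa1b vary between libraries of the same group.

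Hspa5 RNA, the standard read-out of the unfolded protein response, varied least of the members. It was 105, 107, 122 and 130.5 CPM in the 4 Kaede-green 24h libraries, 118, 105, 97.6 and 102 in Kaede-red 24h, 112, 126, 89.8 and 117 in Kaede-green 72h and 126, 122, 116 and 110.1 in Kaede-red 72h libraries. All groups overlapped, and the highest of the 16 libraries was 1.45 times the lowest, the narrowest range of the tested members. The log2 fold change of Kaede-red over Kaede-green cells was -0.14 at 24h (SE 0.18, 95% interval -0.50 to 0.22, edgeR adjusted p = 0.724) and 0.10 at 72h (SE 0.18, interval -0.26 to 0.45, edgeR adjusted p = 0.768). With TMM scaling, and so relative to most genes, a 2-fold difference in either direction lies outside both intervals.

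Hsp90b1, which encodes the ER member of the HSP90 family, GRP94, was at 77, 75, 126 and 162 CPM in Kaede-green 24h and 77.4, 88.4, 117 and 110.4 in Kaede-red 24h libraries. At 72h it was at 113, 147, 103 and 78.3 CPM in Kaede-green and 82.8, 84.5, 88.3 and 88 in Kaede-red libraries. The Kaede-green libraries were spread over both sides of the Kaede-red ones at each time. Neither difference passed the test, with log2 fold changes of -0.17 at 24h (edgeR adjusted p = 0.730) and -0.36 at 72h (edgeR adjusted p = 0.297).

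None of the other 13 ER chaperones and folding enzymes was called either. Over both times the 15 log2 fold changes ran from -0.40 for Manf, a secreted cofactor of BiP, to 0.34 for Pdia4, a disulphide isomerase, with 5 above 0 and a median of -0.08, beside 0.06 for all tested genes. At 24h their median was -0.14 and at 72h 0.04, beside 0.05 and 0.03 for all genes. The summed level of the 15 genes was 748.6 ± 103 CPM (SD, n = 4) in Kaede-green 24h, 712.3 ± 53.9 in Kaede-red 24h, 761.3 ± 181 in Kaede-green 72h and 695.5 ± 21.7 in Kaede-red 72h libraries. None of the 15 passed the test over time in either colour.

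Among the 4 genes of ER-associated degradation, Sel1l stood apart. Its product is the adaptor that holds the ubiquitin ligase HRD1, encoded by Syvn1, in the retrotranslocation complex. Sel1l (chr12:91806043-91849157, minus strand, GRCm38) was at 9.48, 8.19, 11.2 and 4.09 CPM in Kaede-green 24h, 10.7, 10.3, 10.3 and 9.05 in Kaede-red 24h, 9.14, 8.85, 8.27 and 7.80 in Kaede-green 72h and 16.9, 16, 16 and 15.6 in Kaede-red 72h libraries. The 4 Kaede-red 72h libraries were above all 12 others and lay close to each other, while Kaede-green 24h replicate 4 was lowest. Kaede-red exceeded Kaede-green cells 1.90-fold at 72h (log2 fold change 0.93, SE 0.23, edgeR adjusted p = 0.00448), with no overlap of libraries, a state found in this direction for 13.0% of tested genes. At 24h the log2 fold change was 0.27 (SE 0.25, edgeR adjusted p = 0.589), and the change of the difference from 24h to 72h was 0.66 (SE 0.34, edgeR adjusted p = 0.356), so that the times were not shown to differ.

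The other 3 member genes of ER-associated degradation did not pass the test. Syvn1 had a log2 fold change of 0.63 at 72h (SE 0.33, edgeR adjusted p = 0.196) and -0.30 at 24h (SE 0.34, edgeR adjusted p = 0.668). Edem1, which encodes a lectin-like protein that directs glycoproteins to degradation, was named after its values were seen. It was at 34.6, 34.4, 34.7 and 30.7 CPM in Kaede-green 24h and 27.6, 25.8, 25.4 and 24.4 in Kaede-red 24h libraries, and at 28.1, 20.8, 27.7 and 32.5 and 37.2, 34.6, 34 and 30.0 CPM at 72h. All Kaede-red 24h libraries lay below all Kaede-green 24h libraries, which was so for 5.43% of tested genes. They also lay below all Kaede-red 72h libraries, as for 11.8% of tested genes. The log2 fold changes were -0.38 at 24h (edgeR adjusted p = 0.230) and 0.31 at 72h (edgeR adjusted p = 0.250). Herpud1, the remaining gene, had -0.06 and -0.22.

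Of the sensors and transcription factors, Atf6 alone passed the test between the colours. ATF6 is a membrane-bound factor that is cut in the Golgi under stress and then raises ER chaperones. Atf6 (chr1:170704674-170867771, minus strand) was at 8.36, 13.9, 7.64 and 19.6 CPM in Kaede-green 24h, 20.5, 18.4, 16.3 and 16.4 in Kaede-red 24h, 13.5, 15, 16.5 and 17.9 in Kaede-green 72h and 30.3, 25.9, 21.5 and 28.9 in Kaede-red 72h libraries. The 4 Kaede-red 72h libraries were again above the 12 others, and the Kaede-green 24h libraries were the most scattered. The log2 fold change was 0.76 at 72h, a 1.69-fold higher level (SE 0.23, edgeR adjusted p = 0.0182), and 0.54 at 24h (SE 0.24, edgeR adjusted p = 0.192). The adjusted p at 72h rose to at most 0.0668 in the 3 fits that left out Kaede-green 72h replicate 1 or 2 or Kaede-red 72h replicate 1, in which the log2 fold change was 0.69, 0.71 and 0.69.

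Xbp1, the factor whose RNA is spliced by IRE1, was at 34.6, 38.1, 37.7 and 15.9 CPM in Kaede-green 24h and 21.3, 23.1, 23 and 19.4 in Kaede-red 24h libraries, and at 38, 38.5, 27.2 and 30.2 and 25.7, 29.9, 33.1 and 26.9 CPM at 72h. At 24h 3 Kaede-green libraries stood above all Kaede-red libraries and replicate 4 below them. The log2 fold change was -0.55 at 24h (SE 0.22, edgeR adjusted p = 0.135) and -0.21 at 72h (SE 0.21, edgeR adjusted p = 0.553). Without Kaede-green 24h replicate 4, Xbp1 was called lower and Atf6 higher in Kaede-red cells at 24h.

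Atf4, the factor of the integrated stress response that PERK also drives, was at 26.2, 23.4, 18.6 and 21.7 CPM in Kaede-green 24h and 22.1, 24.8, 22.1 and 34.8 in Kaede-red 24h libraries. At 72h it was at 30.3, 24.4, 28 and 22.4 CPM in Kaede-green and 19.2, 19.3, 17.2 and 19.2 in Kaede-red libraries. At 72h all Kaede-red libraries lay below all Kaede-green ones, as for 9.52% of tested genes, but the log2 fold change of -0.48 (SE 0.20) did not pass the test (edgeR adjusted p = 0.0889). At 24h it was 0.23 (SE 0.20, edgeR adjusted p = 0.579).

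Ddit3 and Hsf1 showed no difference that passed the test. Ddit3 was at 8.36, 5.33, 8.41 and 8.18 CPM in Kaede-green 24h, 11.3, 11.8, 7.26 and 10.3 in Kaede-red 24h, 10.6, 10.4, 3.89 and 4.16 in Kaede-green 72h and 6.65, 5.77, 9.83 and 4.74 in Kaede-red 72h libraries, so the groups overlapped. Its log2 fold change was 0.43 at 24h (edgeR adjusted p = 0.470) and -0.11 at 72h (edgeR adjusted p = 0.858). Ddit3 overlaps Mars on the other strand, and the strand setting of the counting was not given in the sources used here. Hsf1 had 1 to 88 counts per library and was at 0.558, 1.64, 0.510 and 5.32 CPM in Kaede-green 24h, 1.58, 1.95, 0.544 and 2.00 in Kaede-red 24h, 0.365, 2.44, 1.46 and 2.08 in Kaede-green 72h and 2.08, 1.97, 0.605 and 1.85 in Kaede-red 72h libraries. Its interval at 72h ran from -1.13 to 1.27 on the log2 scale, so a 2-fold difference in either direction was not excluded. Ern1 had log2 fold changes of -0.02 at 24h and 0.33 at 72h. The ATF4 and CHOP targets Trib3, a pseudokinase, and Asns, asparagine synthetase, were below 4 CPM in every library, with log2 fold changes at 72h of -0.75 (SE 0.48) and -0.51 (SE 0.51).

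**Figure D3:**
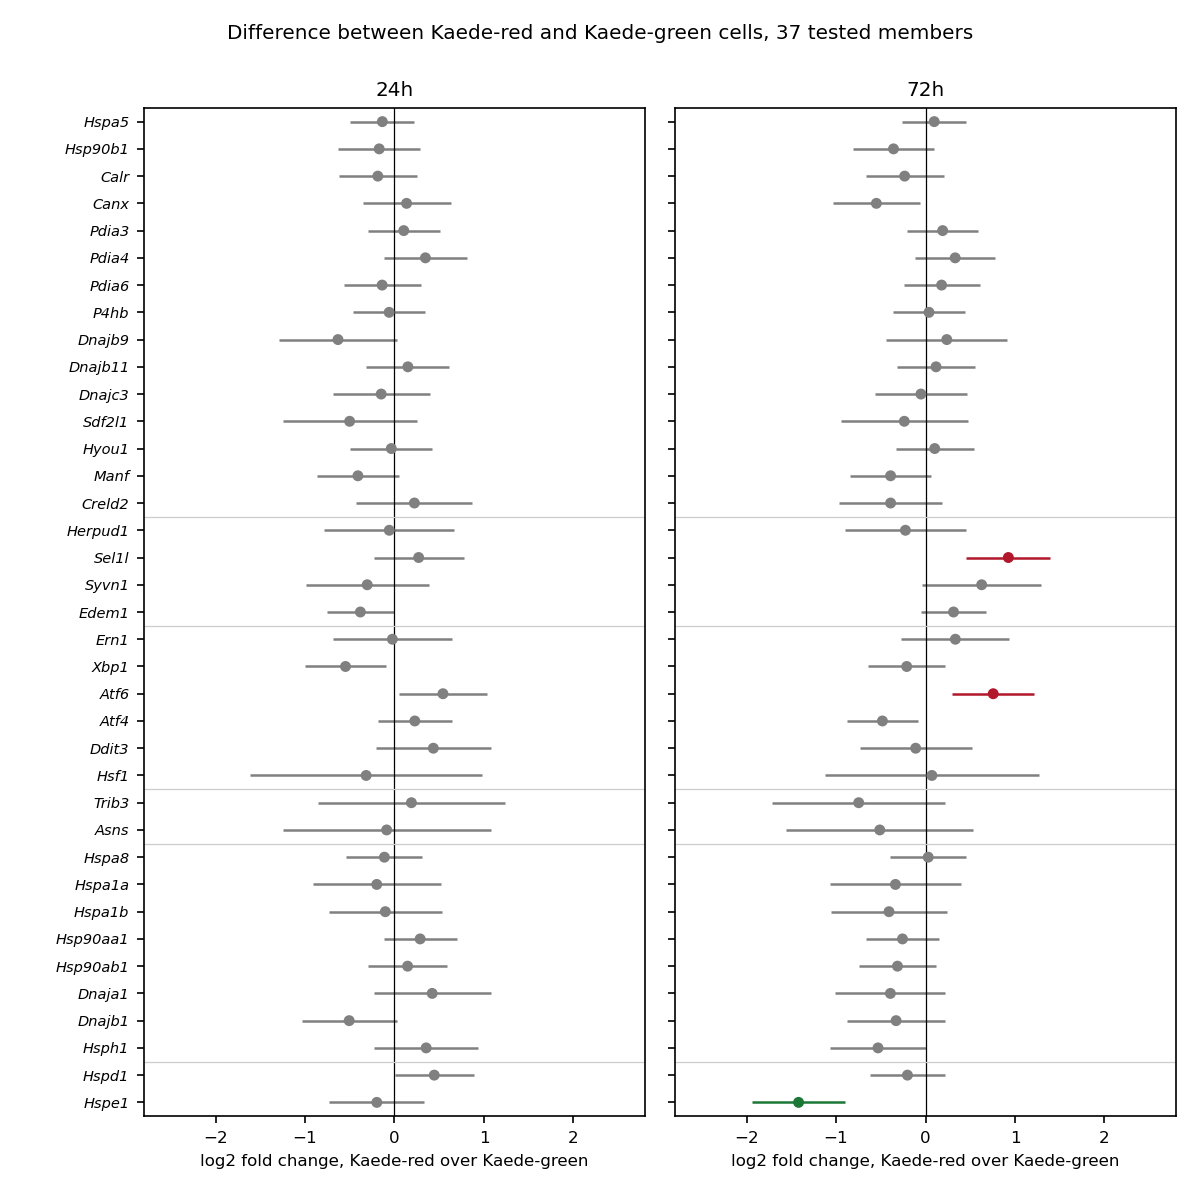
Log2 fold change of Kaede-red over Kaede-green cells at 24h (left) and 72h (right) for the 37 tested members in order of role, as points with 95% intervals from edgeR; red marks members called higher, green called lower and grey not called. None is called at 24h, and Sel1l, Atf6 and Hspe1 are called at 72h.

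At 24h, then, 0 of 37 members were called by edgeR and 0 by DESeq2, where edgeR called 7.50% of all tested genes. An unadjusted p under 0.05 was reached by 4 members, Xbp1, Atf6, Edem1 and Hspd1, the last 2 named after their values were seen, and by 20.8% of all tested genes. At 72h 3 of 37 (8.11%) were called, against 16.8% of all tested genes, 2 higher and 1 lower, against 8.06% and 8.76% of all tested genes.

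The 3 members called at 72h moved beside other measures. Of the macrophage markers, 6 of 8 were called higher in Kaede-red cells at 72h, while the sum of that list was 1067 to 1499 CPM in Kaede-green and 1127 to 1429 in Kaede-red libraries. Lyz2 was not among the 6, and it was called lower over both times and at 24h. The sum of the list at 24h was 910.3 to 2168 CPM in Kaede-green and 617 to 1044 in Kaede-red libraries. The neutrophil list summed to 10.4 to 12.2 CPM in Kaede-green and 17.8 to 22.4 in Kaede-red libraries, with Csf3r called higher. The endothelial list summed to 9.77 to 19.0 and 21.9 to 36.7 CPM, with Pecam1 and Kdr called higher. Cdh5, the other tested endothelial marker, went the other way, with a log2 fold change of -1.23 at 72h that was not called. Over both times Cdh5 was called lower, with -1.42. The 4 tested fibroblast markers were called lower, and the sum of the dividing-cell list was 34.7 to 52.8 CPM in Kaede-green and 20.1 to 27.8 in Kaede-red libraries. The sums of the neutrophil, endothelial, fibroblast and dividing-cell lists did not overlap between the colours at 72h, and their part in the result was not tested. With the Rn45s share of each library as a covariate, the log2 fold changes at 72h were 0.88 for Sel1l, 0.47 for Atf6 and -0.86 for Hspe1, and no member was called. The Rn45s share and the colour cannot be told apart in this design.

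Among cytosolic heat shock proteins, the abundant constitutive genes were not called in any comparison. Hspa8 was at 408, 415, 389 and 292 CPM in Kaede-green 24h, 453, 360.4, 309.7 and 268 in Kaede-red 24h, 425, 333, 315 and 308 in Kaede-green 72h and 349, 380.2, 375 and 305 in Kaede-red 72h libraries. The 4 groups overlapped over nearly their whole range. Its log2 fold changes were -0.11 at 24h (interval -0.54 to 0.31, edgeR adjusted p = 0.812) and 0.03 at 72h (interval -0.39 to 0.45, edgeR adjusted p = 0.946).

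The cytosolic HSP90 genes were not called either. Hsp90ab1 was at 88.1, 126, 171 and 161 CPM in Kaede-green 24h, 133, 132, 185 and 156 in Kaede-red 24h, 190.1, 255, 149 and 139 in Kaede-green 72h and 149, 145, 147 and 149 in Kaede-red 72h libraries. Hsp90aa1, the inducible form, was at 61.3, 54.1, 75.9 and 78.9 CPM in Kaede-green 24h, 72.7, 79.3, 86.2 and 92.3 in Kaede-red 24h, 73.1, 106, 67.9 and 53.6 in Kaede-green 72h and 63.5, 52.4, 65.9 and 69.2 in Kaede-red 72h libraries. For Hsp90aa1, all Kaede-red 72h libraries lay below all Kaede-red 24h libraries, as for 8.76% of tested genes. The log2 fold change was -0.40 (SE 0.20, edgeR adjusted p = 0.219). The log2 fold changes between colours at 72h were -0.31 for Hsp90ab1 and -0.26 for Hsp90aa1, and neither passed the test.

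The inducible HSP70 genes Hspa1a and Hspa1b, which heat and handling of cells raise, behaved otherwise. Hspa1a was at 39.6, 29.1, 25.5 and 23.7 CPM in Kaede-green 24h, 38.1, 32, 14.5 and 16.7 in Kaede-red 24h, 29.6, 7.63, 20.4 and 4.94 in Kaede-green 72h and 12.8, 11, 18.4 and 7.71 in Kaede-red 72h libraries. Kaede-red 24h libraries 1 and 2 and Kaede-green 72h libraries 1 and 3 were high for their groups, and the highest of the 16 libraries was 8.01 times the lowest. Kaede-red 24h libraries 1 and 2 also had the lower Rn45s share in their group. Hspa1b was at 34, 31.5, 25.5 and 21.7 CPM in Kaede-green 24h, 37.1, 33.2, 14 and 19.4 in Kaede-red 24h, 28.5, 8.85, 19.9 and 8.84 in Kaede-green 72h and 12.2, 10.5, 18.9 and 8.82 in Kaede-red 72h libraries. The same libraries were high for both genes, but the 2 genes are not independent readings, because 38.1% of the 150-base windows of the Hspa1a transcript also occur in Hspa1b, and how reads with several matches were counted was not given in the sources used here.

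In Kaede-red cells both fell from 24h to 72h, Hspa1a by 1.06 on the log2 scale (SE 0.34, edgeR adjusted p = 0.0469) and Hspa1b by 1.08 (SE 0.30, edgeR adjusted p = 0.0217), although the libraries of the 2 times overlapped. The call of Hspa1a held in 10 of 16 fits that left out a library and that of Hspa1b in 11 of 16. Both calls were lost without Kaede-red 24h replicate 1 or 2 or Kaede-red 72h replicate 1, 2 or 4, and that of Hspa1a also without Kaede-red 24h replicate 4. Without Kaede-red 24h replicate 1, the log2 fold changes were -0.78 and -0.85. In Kaede-green cells the log2 fold changes over the same time were -0.92 for Hspa1a (SE 0.38, edgeR adjusted p = 0.470) and -0.78 for Hspa1b (SE 0.33, edgeR adjusted p = 0.491). The difference between the colours in this change was -0.14 (SE 0.50, edgeR adjusted p = 0.935) and -0.31 (SE 0.44, edgeR adjusted p = 0.803), so no difference between the colours was shown. Between Kaede-red and Kaede-green cells at the same time neither gene passed the test. The immediate early genes, which tissue digestion raises, summed to 843.2 to 1250 CPM in Kaede-green 24h, 605.9 to 740.2 in Kaede-red 24h, 721.8 to 780.1 in Kaede-green 72h and 622.1 to 796.3 in Kaede-red 72h libraries. Their part in the levels of Hspa1a and Hspa1b was not tested.

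Dnajb1, Dnaja1 and Hsph1, the co-chaperones and the nucleotide exchange factor of HSP70, were not called in any comparison. Over the 8 cytosolic heat shock proteins, the log2 fold changes of Kaede-red over Kaede-green cells had a median of 0.02 at 24h, with 4 above 0, and of -0.33 at 72h, with 1 above 0, beside 0.05 and 0.03 for all tested genes. None of the 8 passed the test at either time. Set side by side at 72h, the medians were 0.04 for the 15 ER chaperones and -0.02 for the 6 sensors and factors. That of the 8 cytosolic heat shock proteins was -0.33. In this order 0, 1 and 0 members were called, against 16.8% of all tested genes. Over time in Kaede-red cells the medians were -0.03, 0.26 and -0.45, beside -0.01 for all tested genes. Here 0, 0 and 2 members were called, against 8.68% of all tested genes. The 2 were Hspa1a and Hspa1b, which are not independent readings.

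**Figure D4:**
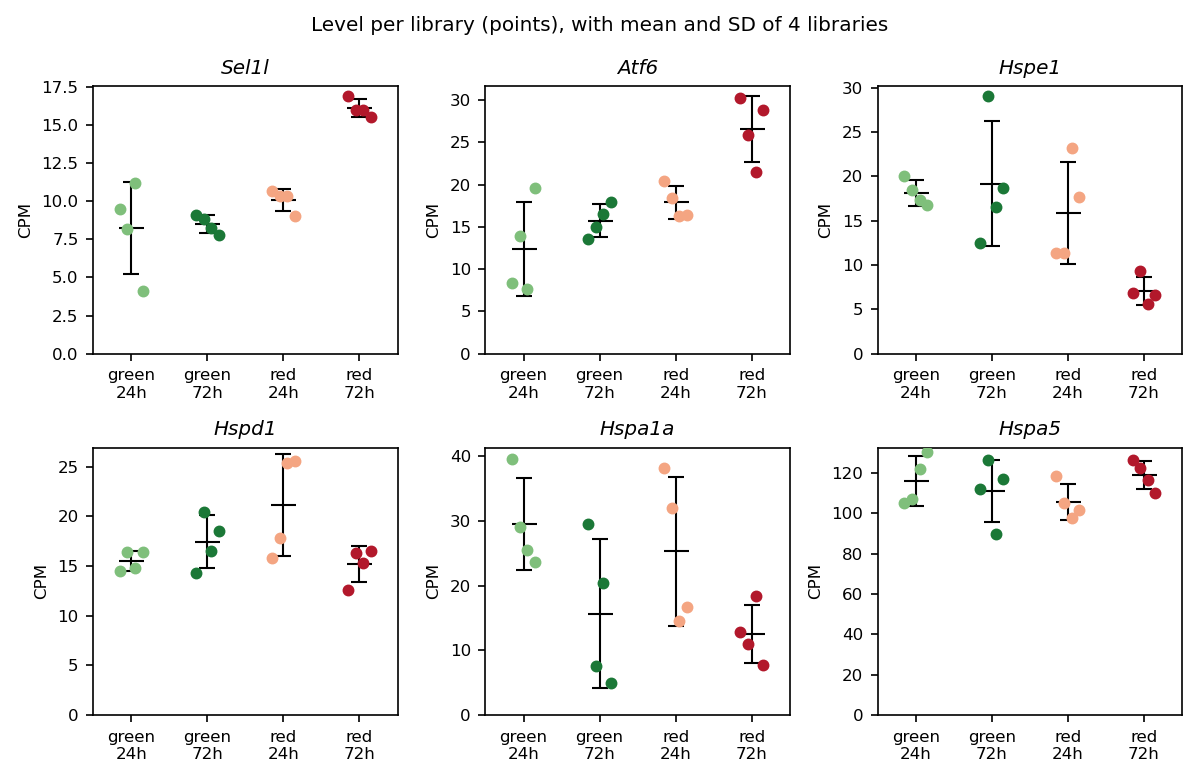
CPM of 6 members in each library (points) with the mean and SD of the 4 libraries of each group. The 4 Kaede-red 72h libraries are the highest for Sel1l and Atf6 and the lowest for Hspe1. The groups overlap for Hspd1 and Hspa5, and Hspa1a is spread widely within groups.

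The mitochondrial chaperonins Hspd1 (HSP60) and Hspe1 (HSP10) build a folding chamber together, as barrel and lid. Hspe1 was called in 3 of the 6 comparisons and Hspd1 in none. Hspe1 (chr1:55088132-55091307, plus strand) was at 20.1, 18.4, 17.3 and 16.8 CPM in Kaede-green 24h, 11.3, 11.3, 23.2 and 17.7 in Kaede-red 24h, 12.4, 29, 16.5 and 18.7 in Kaede-green 72h and 6.81, 9.30, 5.60 and 6.59 in Kaede-red 72h libraries. All 4 Kaede-red 72h libraries lay below the 12 others. Hspe1 fell by 1.42 on the log2 scale in Kaede-red relative to Kaede-green cells at 72h (SE 0.25, edgeR adjusted p = 0.000152), a state of no overlap found in this direction for 9.52% of tested genes. At 24h the log2 fold change was -0.20 (SE 0.26, edgeR adjusted p = 0.730). The change of the difference from 24h to 72h was -1.22 (SE 0.36, edgeR adjusted p = 0.0836), which did not pass the threshold.

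Hspd1 (chr1:55077835-55088243, minus strand) was at 14.5, 16.4, 14.8 and 16.4 CPM in Kaede-green 24h, 15.8, 17.8, 25.4 and 25.6 in Kaede-red 24h, 14.2, 20.5, 16.5 and 18.5 in Kaede-green 72h and 12.6, 16.3, 15.3 and 16.6 in Kaede-red 72h libraries. The groups overlapped at 72h, and Kaede-red 24h libraries 3 and 4, those with the higher Rn45s share in their group, were the highest. The log2 fold change was 0.44 at 24h (SE 0.22, edgeR adjusted p = 0.234) and -0.20 at 72h (SE 0.21, edgeR adjusted p = 0.561). From 24h to 72h in Kaede-red cells it was -0.47 (SE 0.20, unadjusted p = 0.0219, edgeR adjusted p = 0.135), and the change of the difference between the colours was -0.65 (SE 0.30, unadjusted p = 0.0386, edgeR adjusted p = 0.295), both in the direction of Hspe1.

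The ratio of Hspe1 to Hspd1 counts within a library needs no scaling between libraries. The pair was chosen after the values were seen, so the ratio is a description with no test. On the log2 scale the ratio was 0.22 ± 0.18 (SD, n = 4) in Kaede-green 24h, -0.45 ± 0.22 in Kaede-red 24h, 0.08 ± 0.30 in Kaede-green 72h and -1.11 ± 0.32 in Kaede-red 72h libraries. At each time the ratio was lower in all 4 Kaede-red libraries than in any Kaede-green library. The difference of Kaede-red from Kaede-green libraries was -0.67 at 24h and -1.19 at 72h. From 24h to 72h it was -0.67 in Kaede-red cells and -0.14 in Kaede-green cells.

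The ratio of Atf6 to Atf4 counts, chosen likewise and also given with no test, was -0.94 ± 0.64 on the log2 scale in Kaede-green 24h, -0.51 ± 0.41 in Kaede-red 24h, -0.73 ± 0.34 in Kaede-green 72h and 0.50 ± 0.16 in Kaede-red 72h libraries (SD, n = 4). The 4 Kaede-red 72h libraries were the only ones above 0. The difference between colours was 1.23 at 72h and 0.43 at 24h.

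**Figure D5:**
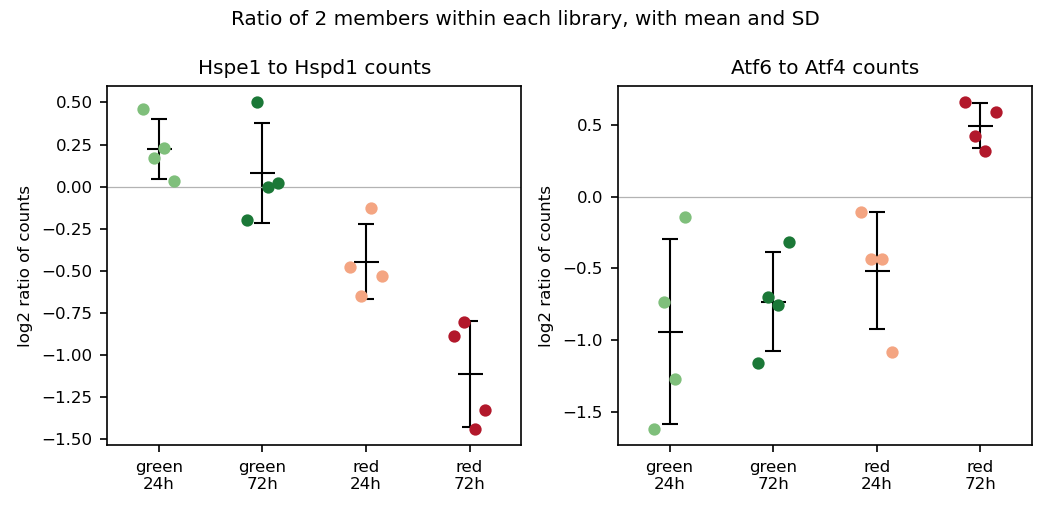
Log2 ratio of Hspe1 to Hspd1 counts (left) and of Atf6 to Atf4 counts (right) in each library, with the mean and SD of the 4 libraries of each group. The Kaede-red libraries lie below the Kaede-green ones for Hspe1 to Hspd1 at both times, and the Kaede-red 72h libraries lie above all others for Atf6 to Atf4.

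Limits attach to Hspe1. The 2 genes overlap at their starts on opposite strands, both are known to have processed pseudogenes elsewhere in the genome, and Hspe1 has a short transcript (1474 bases of exon, against 2642 in Hspd1). With an offset that follows gene length in each library, chosen after the data were seen, its log2 fold change at 72h was -1.15 and it was still called. Sel1l and Atf6, called higher at 72h, have long transcripts, with 8555 and 9231 bases of exon. Their calls at 72h held in 9 of 10 other settings, the length offset among them. Whether gene length had a part in the calls of other genes was not tested. Relative to the median of all genes Hspe1 stood at -1.45 at 72h, with TMM and with the total outside Rn45s alike. A change of scaling moves all genes nearly together, so this likeness follows from the calculation and does not test the choice of scaling.

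Over time in Kaede-red cells, 4 of 37 members (10.8%) were called, against 8.68% of all tested genes, with 1 higher and 3 lower against 4.92% and 3.76%. Sel1l rose by 0.68 on the log2 scale (SE 0.21, edgeR adjusted p = 0.0412), with all 4 libraries at 72h above all 4 at 24h, as for 11.8% of tested genes. Hspe1 fell by 1.13 (SE 0.25, edgeR adjusted p = 0.00438), with all 4 libraries lower, as for 8.76% of tested genes, and the other 2 were Hspa1a and Hspa1b. The call of Sel1l held in 6 of 16 fits that left out a library, with a log2 fold change of 0.62 to 0.72 and an edgeR adjusted p of up to 0.142. It was lost without any 1 of the 8 Kaede-red libraries or without Kaede-green 72h replicate 1 or 3. It was also lost in 5 of 9 other settings of the processing, with an edgeR adjusted p of up to 0.189. Atf6 had a log2 fold change of 0.58 (SE 0.21, edgeR adjusted p = 0.0924), with all libraries at 72h above those at 24h, as for 11.8% of tested genes.

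In Kaede-green cells 0 of 37 members were called over time by edgeR and 0 by DESeq2, and edgeR called 0% of all 9642 tested genes. An unadjusted p under 0.05 was reached by 5 members, Hspa1a, Hspa1b, Dnajb1, Dnaja1 and Dnajb9, the last 3 named after their values were seen, and by 8.66% of all tested genes. The change of the Kaede-red to Kaede-green difference between the times was called for 0 of 37 members by edgeR and for 3 by DESeq2 (Hspe1, Atf4 and Edem1), and edgeR called 0.757% of all tested genes. Its unadjusted p was under 0.05 for 5 members, Hspe1, Atf4, Edem1, Hsph1 and Hspd1, the last 3 named after their values were seen, and for 15.3% of all tested genes.

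The other genes of these pathways were read from 6 lists with 129 genes, of which 124 were tested. Over both times 14 were called higher and 11 lower in Kaede-red cells, with 5 and 6 at 24h and 7 and 10 at 72h. These were 20.2%, 8.87% and 13.7% of the 124, beside 20.3%, 7.50% and 16.8% of all tested genes. Their median log2 fold change was 0.05 over both times, beside 0.06 for all tested genes.

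The genes of translocation into the ER and of glycosylation had 1 of 25 called higher and 6 called lower over both times, together 28% of the list beside 20.3% of all tested genes. Those lower included the channel subunits Sec61b, with a log2 fold change of -1.47 (SE 0.17, edgeR adjusted p = 1.0e-07), and Sec61g, with -1.39 (SE 0.20, edgeR adjusted p = 3.1e-06), and the signal peptidase subunit Sec11c, with -1.51 (SE 0.17, edgeR adjusted p = 9.5e-08). Ssr4, Ssr3 and Sec63 were the others, and Stt3b, a catalytic subunit of the oligosaccharyltransferase, was higher by 0.53. Of 19 other ER folding enzymes, Cnpy3, a chaperone of Toll-like receptors, was called higher and the prolyl isomerase Ppib lower, together 10.5%.

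Other genes of ER-associated degradation had 2 of 19 called higher and 1 lower, together 15.8% beside 20.3% of all tested genes. The lectin Os9, a partner of SEL1L, was higher by 0.73 (SE 0.17, edgeR adjusted p = 0.00217) and Vcp, the ATPase that extracts proteins from the ER, by 0.65 (SE 0.16, edgeR adjusted p = 0.00318). At 72h Os9 was higher by 1.03 and Vcp by 0.91, and both also rose over time in Kaede-red cells, by 0.82 and 0.72. Vimp and Selk were called lower in both of these comparisons, so the calls were 2 higher and 2 lower in each. These were 21.1% of the list each time, beside 16.8% and 8.68% of all tested genes. Selk, a small selenoprotein of the ER membrane, was also lower over both times, with a log2 fold change of -0.86 (SE 0.16, edgeR adjusted p = 0.000106).

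Among 24 other sensors and genes of the integrated stress response, 2 were called higher and 2 lower over both times, together 16.7% beside 20.3% of all tested genes. Eif2ak1, the haem-regulated kinase of eIF2alpha, was higher by 0.75 (SE 0.20, edgeR adjusted p = 0.00652). Eif2ak3, which encodes PERK, had a log2 fold change of 0.26 (SE 0.36, edgeR adjusted p = 0.658), and Ppp1r15a, the phosphatase subunit GADD34, -0.22 (SE 0.20, edgeR adjusted p = 0.482). The related gene Ppp1r15b was called lower over both times and at 24h. The amino acid transporter subunits Slc3a2 and Slc7a5, which form a heterodimer, went opposite ways, with log2 fold changes of 0.57 (edgeR adjusted p = 0.00181) and -0.55 (edgeR adjusted p = 0.0449). Ddit4, an inhibitor of mTORC1, fell by 1.27 over time in Kaede-red cells (SE 0.24, edgeR adjusted p = 0.00196).

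Of 29 other cytosolic chaperones and co-chaperones, 7 were called higher and 1 lower over both times, together 27.6% beside 20.3% of all tested genes, with a median log2 fold change of 0.26 beside 0.06. They were the HSP70 and HSP90 partners St13, Ahsa1, Dnajc7 and Bag6 and the chaperonin subunits Cct2, Cct5 and Cct8. Ahsa1, which activates the ATPase of HSP90, was higher by 0.83 (SE 0.19, edgeR adjusted p = 0.00131), and Dnajb6 had -0.92 (SE 0.16, edgeR adjusted p = 9.6e-05). Of this list 13.8% were called at 24h, 10.3% at 72h and 3.45% over time in Kaede-red cells. The shares of all tested genes were 7.50%, 16.8% and 8.68%. At 72h the calls were Bag3 and Bag6, higher, and Dnajb6, lower. Of 8 other mitochondrial chaperones and proteases only Clpp was called over both times, with 1.62 (SE 0.50, edgeR adjusted p = 0.0195). This was 12.5% of the list beside 20.3% of all tested genes, and none of the list was called at 24h or at 72h.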

How the data were processed

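Bulk RNA-seq libraries had been made with a stranded total RNA kit for low input. According to the paper and the submitters' processing notes, the authors trimmed the reads with Trim Galore, checked them with FastQC, used HISAT2 for alignment to mm10 and obtained gene counts with featureCounts. The deposited values are raw counts per gene symbol with no normalization, which the authors did not pool over replicates. The strand setting and the handling of reads with several matches are not given in the sources used here.

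All 16 libraries were fitted together with edgeR 4.0.16 in R 4.3.3 (TMM factors, default filter by expression, quasi-likelihood test), with Benjamini-Hochberg adjustment over the 9642 genes tested and calls at an adjusted p under 0.05. Red and green cells were compared over both times and at each time, 72h was compared with 24h in each colour, and the change of the difference was tested. DESeq2 1.42.0 was an alternative, with other scalings and filters, an Rn45s covariate, a replicate block, a length offset and fits without each library. The tests were tried on simulated data. Exon lengths and positions came from an annotation of GRCm38, which is mm10. The intervals given are at 95%. Ratios of 2 members used a pseudocount of 0.5 and were not tested.

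The members and lists were chosen with earlier results of these data known. Genes named with values in every library were Hspa5, Hsp90b1, Xbp1, Ddit3, Atf4, Hsf1, Hspa1a, Hspa1b, Hsp90aa1, Hsp90ab1 and Hspa8 in any case, and up to 5 higher and 5 lower called members of each comparison. Others are given by role, in counts and ranges, and named where they were called or not tested. Replicate numbers were not stated to pair libraries, and same-numbered libraries did not deviate together at both times, so no pairing was assumed.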

Additional observations from a re-analysis of the deposited data

Results flagged for a closer look

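In 4 of 56 groups checked, over 14 named genes, a library stood far from the other 3 of its group by Dixon's test, which flags about 1 in 20 groups by chance. Xbp1 was at 15.9 CPM in Kaede-green 24h replicate 4, where the other 3 libraries of the group were at 34.6 to 38.1. Ddit3 was at 5.33 CPM in Kaede-green 24h replicate 2, against 8.18 to 8.41 in the others. Atf4 was at 17.2 CPM in Kaede-red 72h replicate 3, against 19.2 to 19.3. Hsf1 was at 0.605 CPM in the same library, against 1.85 to 2.07, from 4 counts.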

How the results depend on the processing

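The count of members called between the colours over both times was 3. It became 30 when libraries were scaled by the total outside Rn45s with no TMM factors (58.7% of all tested genes, Hspe1 no longer called), 0 with the Rn45s share as a covariate, 5 with DESeq2 and 6 with an offset for gene length, which was added after the data were seen, and fits without a library gave 3 to 6, with 6 without Kaede-green 24h replicate 4 (Manf, Pdia4 and Xbp1 added). At 24h the count of 0 became 26 with the total outside Rn45s (46.1% of all tested genes) and 1 with the length offset (Xbp1), and 0 to 2 without a library. At 72h the count of 3 became 15 with the total outside Rn45s (37.2% of all tested genes) and 0 with the Rn45s covariate, and 2 to 3 without a library. Over time in Kaede-red cells the count of 4 became 8 with at least 10 counts in every library, 7 with only the groups compared, 0 with the Rn45s covariate and 7 with DESeq2. It was 1 to 4 without a library, falling to 1 (Hspe1) without Kaede-red 24h replicate 1 or 2 or Kaede-red 72h replicate 1, 2 or 4 and to 2 without Kaede-red 24h replicate 4. Over time in Kaede-green cells it was 0 to 0 without a library. For the change of the difference, the count of 0 became 1 (Hspe1) with at least 10 counts in every library and 3 with DESeq2, and 0 to 0 without a library. Sel1l over time in Kaede-red cells was lost in 5 of 9 settings, with RLE size factors, the total outside Rn45s, no filter, the Rn45s covariate and the length offset. No result reversed. The causes were not tested, except that scaling by the total outside Rn45s raised the median of all genes too. Of the counts outside Rn45s, Lars2 took a median of 23.1% in Kaede-green 24h and 5.46% in Kaede-red 24h libraries. At 72h its medians were 18.5% and 6.09%. Mir6236 took 21% and 6.36% at 24h and 17.5% and 6.91% at 72h. The part of these 2 genes in that scaling was not tested.

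With the replicate number as a block, 3 members were called over both times, 0 at 24h, 3 at 72h and 4 over time in Kaede-red cells. Same-numbered libraries correlated at 0.0493 to 0.153 at 24h and -0.0183 to 0.0287 at 72h in their deviations from group means, and 4 of 8 and 0 of 8 libraries correlated best with their own number (1 of 8 between the times in Kaede-green and 7 of 8 in Kaede-red cells), so the block does not test a pairing.

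Depth limits the low members most, since Hsf1, Trib3, Asns and Chac1 had between 0 and 88 counts per library.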
